A study of Homo sapiens with 5 samples.

Results

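The transcript uc002ohs.3, a coding sequence of 196 codons in the deposited tables, carried more ribosome footprints in the 1 library of HEK293T cells lacking QTRT1 than in the 4 libraries of cells lacking QTGAL or QTMAN. It was chosen by its identifier, and for that high level in the QTRT1 knockout library, among 182398 transcript rows. Rows within 10 rows of it that hold identical counts in all 5 libraries were to be counted with it as isoforms. There was no such row, so uc002ohs.3 is the 1 member. Another 16 rows within 10 rows of it have a count, and these are described beside it because isoforms of a gene can share footprints. No gene is assigned to these rows, so some of them may belong to another gene.

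The 5 libraries are ribosome profiling libraries from HEK293T, a human embryonic kidney cell line described in the labels as epithelial: 1 from cells with the genotype QTRT1 KO, 2 from QTGAL KO and 2 from QTMAN KO. All 3 genotypes are knockouts of genes for queuosine, and cells with all of them intact were not analysed here. The labels give no age of the culture and no treatment, and they name no clone. Numbers in the titles are not explained, and replicates are numbered in accession order. The labels do not say whether libraries of the same genotype come from separate cultures, so the spread between them may be technical. Counts per library summed to between 12002044 and 25291912, with 13918194 in the QTRT1 library. The tables pair no identifier with a gene symbol, so neither the targeted genes nor markers of the cell line were checked.

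Queuosine replaces guanosine at the first anticodon position in tRNAs for aspartate, asparagine, histidine and tyrosine. The exchange is made by an enzyme whose catalytic subunit is QTRT1. QTGAL then adds galactose to queuosine in tyrosine tRNA, and QTMAN adds mannose in aspartate tRNA, so both sugars depend on the step that QTRT1 carries out.

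The identifier carries the working name SPINT2, because its 196 codons fit the shorter isoform of that protein, of 195 residues and a stop codon. A length alone does not identify a gene, and no table used here pairs the identifier with a symbol, so the match to SPINT2 was not tested. RefSeq places the SPINT2 gene on chromosome 19 (chr19:38264573-38292615, GRCh38.p14) and lists 2 protein records for it. SPINT2, also called HAI-2, is a membrane-anchored inhibitor of the Kunitz family. It blocks serine proteases at the surface of epithelial cells, among them matriptase, hepsin and the activator of hepatocyte growth factor, and its inherited loss causes a congenital diarrhoea with sodium loss. The row 2 places before uc002ohs.3 has 253 codons, or 252 residues and a stop, and is referred to below as the 253-codon row.

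The QTRT1 library held 103 footprints of uc002ohs.3, against 48 and 15 in QTGAL knockout replicates 1 and 2 and 22 and 24 in QTMAN knockout replicates 1 and 2. In CPM, the usual scaling of counts to library size, with sizes adjusted by TMM factors, this was 7.32 CPM in the QTRT1 library, with an exact Poisson interval of 5.97 to 8.87 CPM at 95% confidence. The QTGAL libraries stood at 2.01 (1.48 to 2.66) and 1.26 (0.706 to 2.08) CPM. The QTMAN libraries stood at 1.15 (0.721 to 1.74) and 0.981 (0.629 to 1.46) CPM. The value of the QTRT1 library lay above all the others, and its counting interval overlapped none of theirs. Among the other 4 libraries all pairs of intervals overlapped except that of QTGAL replicate 1 with QTMAN replicate 2. These intervals cover counting error only, as no molecular identifiers are mentioned and amplified reads are not independent molecules.

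**Figure D1:**
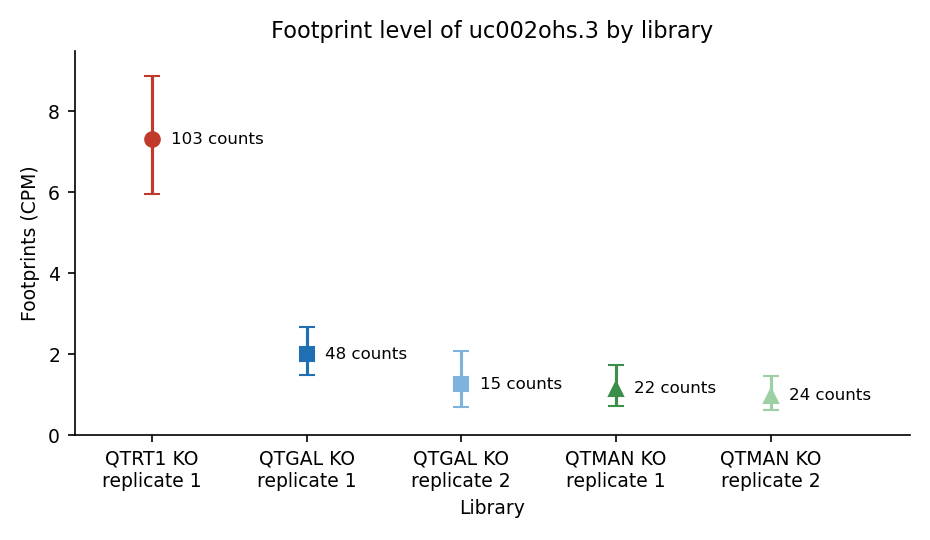
Footprint level of uc002ohs.3 in CPM for each library, with 95% exact Poisson intervals as bars and the raw counts printed beside the points. The QTRT1 KO library stands at 7.32 CPM and the other 4 libraries between 0.981 and 2.01 CPM.

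Nearly as many footprints came from the QTRT1 library alone as from the other 4 together, 103 against 109, that is 48.6% of the total. These are raw counts from libraries of unequal size. The QTRT1 library held 13918194 counts in all, and the other 4 held 12002044 to 25291912 each. The mean was 1.63 ± 0.529 CPM (SD, n = 2) over the QTGAL libraries and 1.07 ± 0.120 CPM (SD, n = 2) over the QTMAN libraries, and the single QTRT1 library has no SD of its own. The QTRT1 library was 3.64-fold above QTGAL replicate 1 (counting interval 2.56 to 5.24), the smallest ratio of the 4, and 7.46-fold above QTMAN replicate 2 (4.75 to 12.2), the largest. The ratio was 5.80 (3.36 to 10.8) over QTGAL replicate 2 and 6.36 (3.98 to 10.6) over QTMAN replicate 1.

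In the edgeR fit across 60966 transcripts, the log2 fold change of uc002ohs.3 in QTRT1 knockout over the mean of both other genotypes was 2.44 ± 0.28 (SE), a 5.42-fold difference. It ranked at place 69 from the top, and the median absolute log2 fold change of all tested transcripts was 0.24. The transcript was among the 74 called higher, 0.121% of those tested. Rank and share count each row separately, although rows of isoforms may share footprints. As uc002ohs.3 was picked on this contrast, both the value and the call are descriptions, and neither is a test of it. The comparisons with each genotype share the QTRT1 library, and their values were 2.10 ± 0.32 over QTGAL knockout and 2.78 ± 0.33 over QTMAN knockout (log2, SE). DESeq2 gave similar values with larger SEs. Its values were 2.46 ± 0.51 over both genotypes, 2.13 ± 0.56 over QTGAL and 2.79 ± 0.57 over QTMAN knockout (log2, SE). The QTRT1 library lay above all 4 others for 24.8% of tested transcripts, so that order is common and only the size of the gap puts uc002ohs.3 near the top of the list. All of these values rest on 1 QTRT1 library, whose own spread is unknown, and a higher amount of mRNA and more translation of each mRNA cannot be told apart from footprints alone.

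**Figure D2:**
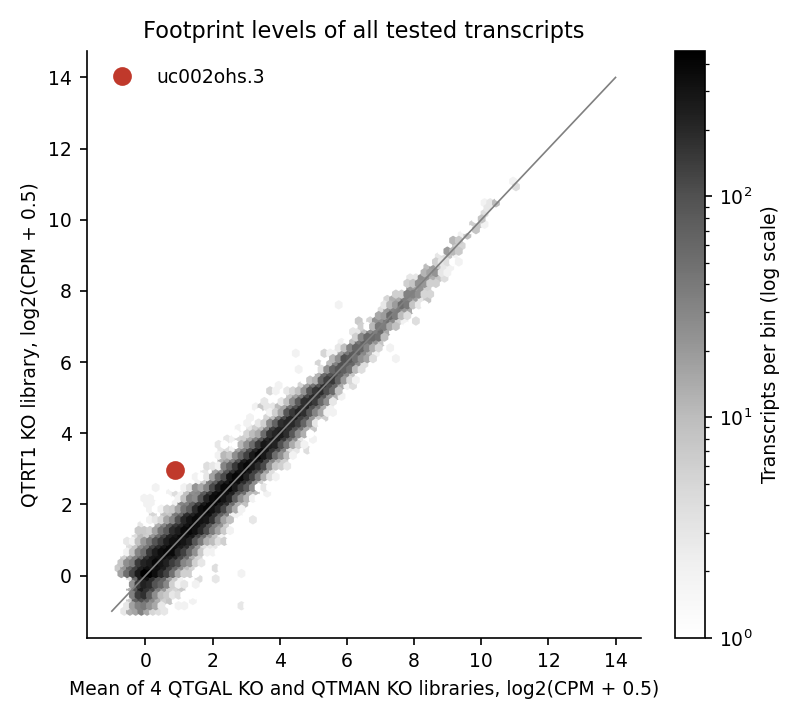
Footprint level of each of 60966 tested transcripts in the QTRT1 KO library (vertical axis) against the mean of the 4 QTGAL KO and QTMAN KO libraries (horizontal axis), both as log2(CPM + 0.5), with the number of transcripts per bin in grey and the line of equal levels. The transcript uc002ohs.3 (red) has 7.32 CPM in the QTRT1 KO library and a mean of 1.35 CPM in the other 4, and lies above the body of the plot.

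Among all tested transcripts, uc002ohs.3 is neither long nor densely covered by footprints. Its 196 codons compare with a median of 251, and its mean over the 5 libraries was 2.54 CPM, against a median of 3.77 CPM. Per 100 codons, its level was 3.73 CPM in the QTRT1 library, above that of 73.6% of tested transcripts in the same library. The densities in QTGAL replicates 1 and 2 were 1.02 and 0.643 CPM per 100 codons, above 40.6% and 29.2% of transcripts. In QTMAN replicates 1 and 2 they were 0.587 and 0.501 CPM per 100 codons, above 26.8% and 23.2%. The transcript thus stood in the upper part of the distribution of densities in the QTRT1 library and below the median in the other 4.

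The comparison of QTGAL with QTMAN knockout does not use the QTRT1 library, and uc002ohs.3 was tested in it. Both QTGAL libraries lay above both QTMAN libraries, as they did for 18.2% of tested transcripts. The log2 fold change was 0.68 ± 0.32 (SE), a 1.61-fold difference, and did not pass the edgeR quasi-likelihood test (unadjusted p = 0.0547, Benjamini-Hochberg adjusted p = 0.780 over all transcripts). None of the 60966 transcripts was called by edgeR in this comparison (0%), and 6.49% had an unadjusted edgeR p under 0.05. DESeq2 called 12 of the 4231 transcripts to which it gave an adjusted p, and uc002ohs.3 was not among those 4231. With 2 libraries against 2, an exact two-sided permutation test gave p = 0.333 for uc002ohs.3, the smallest it can give. The difference rests mostly on QTGAL replicate 1: without it the log2 fold change was 0.25, and without QTGAL replicate 2 it was 0.92. Missing the threshold does not show that the 2 genotypes have the same level.

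The order of the levels was therefore QTRT1 knockout, QTGAL knockout and QTMAN knockout, and only the first step lay beyond all of the counting intervals. Within genotypes, QTGAL replicate 1 was 1.59-fold above replicate 2 (counting interval 0.877 to 3.06), and QTMAN replicate 1 was 1.17-fold above replicate 2 (0.627 to 2.18). The absolute difference between the QTGAL replicates, 0.51 on the log2(CPM + 0.5) scale, exceeded that of 87.0% of tested transcripts. Between the QTMAN replicates it was 0.16, which exceeded that of 44.0%. The pair of QTGAL replicate 2 and QTMAN replicate 1 differed by 0.093, less than either pair of replicates.

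The rows before uc002ohs.3 did not all share its pattern, while every row with a count after it, within 10 rows, did. A run of 9 rows with a count, from 2 rows before it to 9 rows after it and of 62 to 253 codons, had the QTRT1 library above all other libraries in every row. Their log2 fold changes over the mean of both other genotypes lay between 1.84 and 3.03, with a median of 2.34, and 8 of the 9 were called higher, where 0.121% of all tested transcripts were. These rows are no independent support for uc002ohs.3. Several have nearly the same counts, and a footprint in codons shared by several isoforms may be counted for each. The rows were joined because the QTRT1 library was highest in each, so their calls follow in part from that choice and are no test. The run ends at the last row with a count within 10 rows, and rows beyond that limit were not examined for it.

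The 253-codon row held 125 footprints in the QTRT1 library, against 65 and 22 in the replicates of QTGAL knockout and 31 and 36 in those of QTMAN knockout. Its level was 8.88 CPM in the QTRT1 library, 2.72 and 1.85 CPM for QTGAL knockout and 1.62 and 1.47 CPM for QTMAN knockout, with a log2 fold change of 2.22 ± 0.25 (SE) over both genotypes. A row of 203 codons, next before uc002ohs.3, held 111 footprints in the QTRT1 library, 49 and 15 in the replicates of QTGAL knockout and 27 and 32 in those of QTMAN knockout. Both rows have the same order of genotype means as uc002ohs.3.

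If every footprint of uc002ohs.3 was also counted for the 253-codon row, which the tables do not show, the excess of that row over uc002ohs.3 lies in 57 further codons. The excess was 22 footprints in the QTRT1 library, against 17 and 7 in the replicates of QTGAL knockout and 9 and 12 in those of QTMAN knockout. Scaled, it was 1.56 CPM (0.979 to 2.37) in the QTRT1 library, 0.712 (0.414 to 1.14) and 0.588 (0.237 to 1.21) CPM for QTGAL knockout, and 0.471 (0.215 to 0.894) and 0.491 (0.254 to 0.857) CPM for QTMAN knockout. The QTRT1 library was thus highest in the further codons as well, but there its interval overlapped those of both QTGAL replicates, while lying above those of both QTMAN replicates.

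Per 100 codons, the QTRT1 library had 2.74 CPM in the further codons, below its 3.73 CPM in uc002ohs.3. In each of the other 4 libraries the further codons had the higher value, at 1.25 and 1.03 CPM per 100 codons for QTGAL knockout and at 0.826 and 0.861 for QTMAN knockout, with wide intervals. As a share of the 253-codon row, uc002ohs.3 made up 82.4% in the QTRT1 library (exact binomial interval 74.6% to 88.6%), 73.8% (61.5% to 84.0%) and 68.2% (45.1% to 86.1%) for QTGAL knockout, and 71.0% (52.0% to 85.8%) and 66.7% (49.0% to 81.4%) for QTMAN knockout. The QTRT1 library had the highest share of the 5, the 5 intervals overlap, and the difference between the libraries was not tested.

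**Figure D3:**
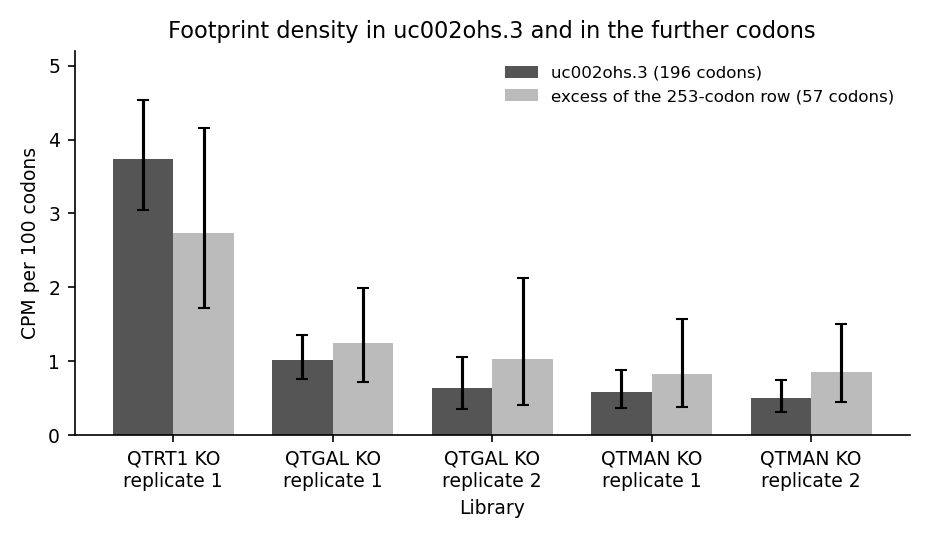
Footprint density in CPM per 100 codons for uc002ohs.3 (dark bars) and for the excess of the 253-codon row over it, taken as 57 further codons (light bars), in each library, with 95% exact Poisson intervals. The QTRT1 KO library is highest in both, at 3.73 and 2.74 CPM per 100 codons.

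The gap between the libraries was uneven over the other rows of the run. A row of 175 codons, next after uc002ohs.3, held 76 footprints in the QTRT1 library, 27 fewer than uc002ohs.3. In the other 4 libraries it held 50, 16, 21 and 26, each within 2 counts of uc002ohs.3 and in 3 of them above it, so a shorter row of the run does not always hold a subset of the footprints. Its log2 fold change was accordingly smaller, at 1.95 ± 0.29 (SE). The row of 106 codons, 9 places after uc002ohs.3, had the highest value of the run, 3.03 ± 0.37 (SE). It held 56 footprints in the QTRT1 library, against 18 and 5 in the replicates of QTGAL knockout and 9 and 7 in those of QTMAN knockout. Its count equalled 54.4% of that of uc002ohs.3 in the QTRT1 library, 37.5% and 33.3% for QTGAL knockout, and 40.9% and 29.2% for QTMAN knockout. Whether its footprints are among those of uc002ohs.3 is not shown by the tables, and the difference between these ratios was not tested. The rows of 131 and 140 codons had identical counts, 49 in the QTRT1 library, 25 and 6 in the replicates of QTGAL knockout and 13 and 11 in those of QTMAN knockout. The row of 62 codons, with 26 footprints in the QTRT1 library, was the 1 row of the run not called, at 1.84 ± 0.45 (log2, SE).

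Per codon, uc002ohs.3 stood at 1.68 times the median of the other 16 rows in the QTRT1 library. The ratios were 0.951 and 1.11 for QTGAL knockout and 0.807 and 0.800 for QTMAN knockout. The 16 rows include the 8 rows before the run, described below, which had 0.455 to 2.32 CPM per 100 codons in the QTRT1 library. Within the run the values there were 2.12 to 3.89, and the 3.73 of uc002ohs.3 lay inside that range. In the other libraries, too, uc002ohs.3 lay inside the range of the run. The ranges were 0.49 to 1.20 and 0.27 to 0.77 for QTGAL knockout, and 0.41 to 0.76 and 0.24 to 0.79 for QTMAN knockout. The ratio of 1.68 thus depends on the low rows before the run. It is not read as an excess over the run particular to QTRT1 knockout.

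The run had the QTGAL mean above the QTMAN mean in all 9 rows, by 0.18 to 0.76 on the log2 scale with a median of 0.59. None of the 9 passed the edgeR test, and their lowest adjusted p was 0.758. The highest value was that of the 106-codon row and the lowest that of the 62-codon row. As these rows may hold the same footprints, the shared sign is not counted as 9 observations. It was not particular to the run either. The 8 rows before it, described below, had values of -0.04 to 0.79 with a median of 0.42.

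**Figure D4:**
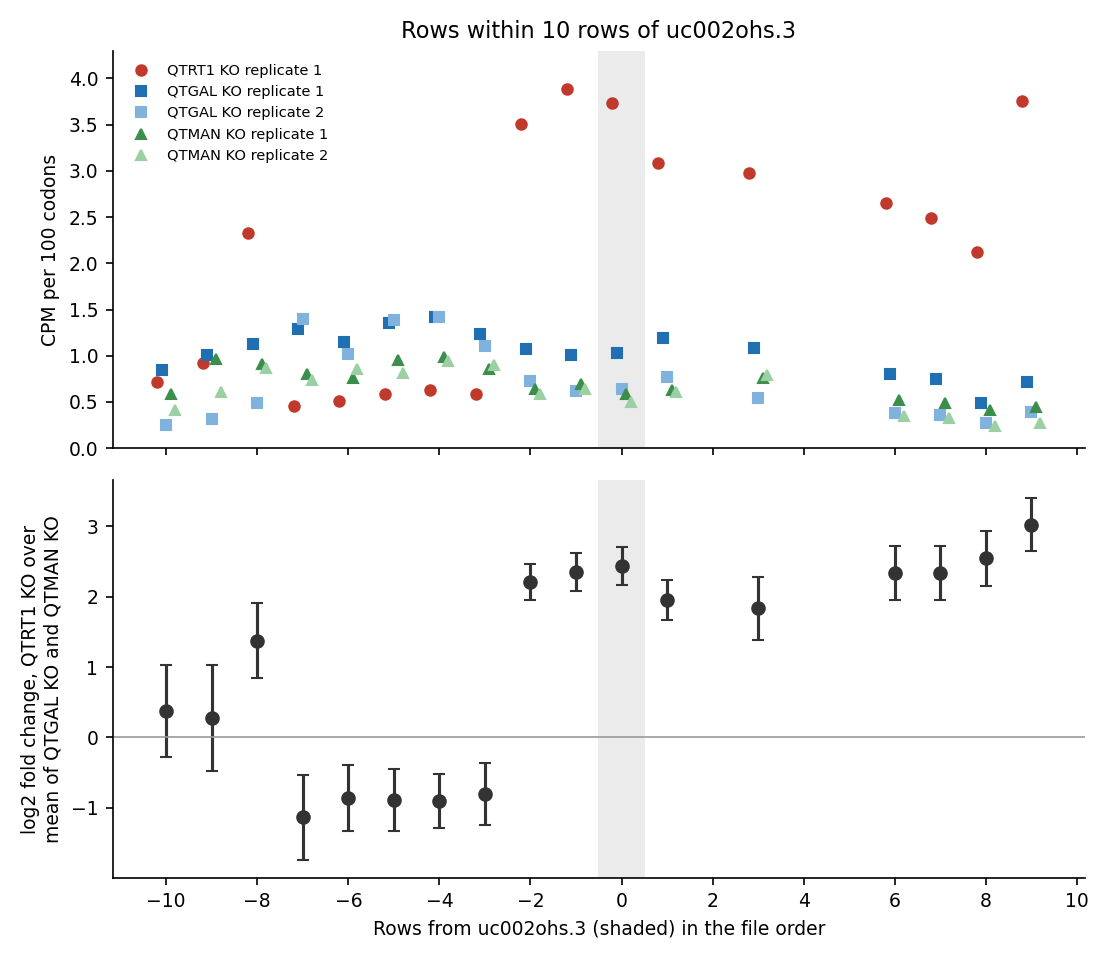
Top, footprint density in CPM per 100 codons of the 17 rows with a count within 10 rows of uc002ohs.3 (shaded), by library. Bottom, log2 fold change of the QTRT1 KO library over the mean of QTGAL KO and QTMAN KO in the edgeR fit, with SE as bars. The 9 rows from 2 before to 9 after uc002ohs.3 lie between 1.84 and 3.03, and the 5 rows just before them lie between -1.14 and -0.81.

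The rows just before the run did not share the high level. Of the 8 with a count, from 10 to 3 rows before uc002ohs.3 and of 52 to 148 codons, none was called higher, and the QTRT1 library was the lowest of all 5 in 5 of them. The longest, of 148 codons, stood at 0.924 CPM in the QTRT1 library, against 2.09 and 2.10 CPM in the replicates of QTGAL knockout and 1.46 and 1.39 CPM in those of QTMAN knockout, a log2 fold change of -0.90 ± 0.39 (SE). The row of 52 codons, 8 before uc002ohs.3, had the QTRT1 library highest, at 1.21 CPM with 17 counts, and a log2 fold change of 1.38 ± 0.53 (SE). Over 50 runs of rows farther away on either side, at more than 20 rows from uc002ohs.3, the median log2 deviation from the mean of the libraries was -0.118 in the QTRT1 library, 0.0884 and -0.0158 in the replicates of QTGAL knockout and 0.0138 and 0.0505 in those of QTMAN knockout. In that wider stretch of the file the QTRT1 library had the lowest value of the 5, and with these shifts subtracted the log2 fold change of uc002ohs.3 was 2.60.

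Transcripts elsewhere in the tables with the most similar pattern were sought by the root mean square difference of log2(CPM + 0.5), centred on the mean of each transcript, over the 5 libraries. Of 29260 transcripts with at least 5 CPM in some library, uc061ujs.1, of 1471 codons, was nearest with a difference of 0.242, and uc059iwy.1, of 127 codons, followed with 0.326. The median difference over all of them was 0.896.

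The nearest, uc061ujs.1, held 841 footprints in the QTRT1 library, against 451 and 238 in the replicates of QTGAL knockout and 294 and 375 in those of QTMAN knockout. Its level in the QTRT1 library was 59.8 CPM, and the lowest level was 15.3 CPM, in QTMAN replicate 2. The shorter uc059iwy.1 stood at 5.12 CPM in the QTRT1 library, against 2.22 and 1.34 CPM in the replicates of QTGAL knockout and 1.78 and 1.39 CPM in those of QTMAN knockout. It therefore met the limit of 5 CPM in the QTRT1 library only. The log2 fold changes of uc061ujs.1 and uc059iwy.1 in QTRT1 knockout over both genotypes, 1.79 and 1.58, were smaller than that of uc002ohs.3. Between QTGAL and QTMAN knockout they were 0.34 ± 0.13 and 0.24 ± 0.31 (SE), and neither passed the edgeR test (adjusted p = 0.750 and 0.937). Both were picked for the likeness of their values, so their order over the libraries is a description.

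**Figure D5:**
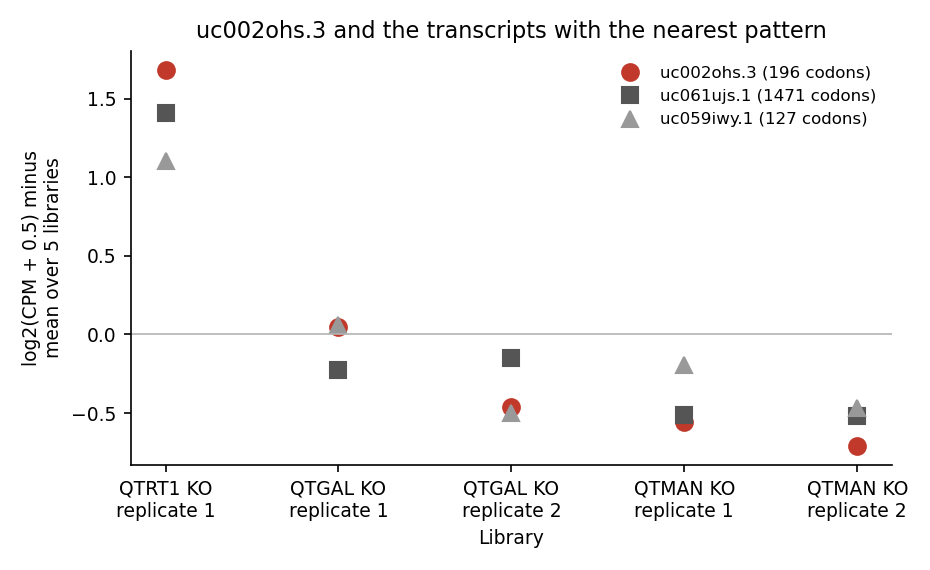
Level of uc002ohs.3 and of the 2 transcripts with the nearest pattern in each library, as log2(CPM + 0.5) minus the mean of the transcript over the 5 libraries. All 3 are highest in the QTRT1 KO library.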

How the data were processed

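Each library has its own deposited table, which lists transcripts by identifier with a coding length and a raw footprint count, not normalized, as the values show. Per the submitters' processing notes, bcl2fastq 2.19, CASAVA, STAR 2.7.0a and the build hg38 were used; annotation, counter and strand setting: not given in the sources used here. The deposited lengths (unit: other) were read as codons, because 33.1% of them are multiples of 3. A length is listed for 93916 of 182398 rows, and the others have a count of 0 throughout.

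Libraries were grouped by the genotype in the labels. Counts were fitted with edgeR 4.0.16 in R 4.3.3 (filterByExpr, TMM, glmQLFit and glmQLFTest, 1 mean per genotype over 5 libraries), which assumes that the single QTRT1 library varies like the others. A transcript was called at a Benjamini-Hochberg adjusted p under 0.05. The SE is the log2 fold change divided by the square root of F. DESeq2 1.42.0 was an alternative. The fit was tested on simulated data. Intervals for counts, ratios and shares are exact, from scipy 1.17.1.

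The transcript, the gene lists and the tests were chosen with earlier results of these data known. The transcripts named are uc002ohs.3 and the 2 of nearest pattern, 1 per 20 rows; rows next to it are given by length. The planned lists of Kunitz inhibitors, proteases, queuosine genes and cell markers could not be run without gene symbols. No protein or transcript sequence of uc002ohs.3 was used here.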

Additional observations from a re-analysis of the deposited data

How the results depend on the processing

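The log2 fold change of uc002ohs.3 in QTRT1 knockout over both genotypes kept its direction under every setting tried, between 2.35 with a prior count of 2 and 2.60 with the local shift subtracted among those with all libraries, and between 2.33 and 2.66 when 1 library was left out. Left-out libraries gave 1.87 to 2.53 over QTGAL knockout, 2.66 to 2.90 over QTMAN knockout, and 0.25 to 0.92 for QTGAL over QTMAN knockout, whose adjusted p was never under 0.05 (lowest 0.712). A fit without 1 library leaves a lone library, assumed to vary like the others. Asking for 5 CPM or more in 2 libraries left uc002ohs.3 out, and DESeq2 gave it no adjusted p for QTGAL over QTMAN knockout. The background depended on the setting, and the cause was not tested: 74 transcripts were called higher in QTRT1 knockout as reported above, 162 with total counts, 712 with no filter, 13 with at least 5 CPM in 2 libraries, and 71 to 880 with 1 library left out. Between QTGAL and QTMAN knockout, where edgeR called 0, DESeq2 called 12, no filter gave 282, and leaving out 1 library gave 9 to 506. The density of uc002ohs.3 relative to the 16 other rows averaged 1.07 over the libraries. In the QTRT1 library it was 1.68, a value that depends on the low rows before the run and is not a comparison with the run alone. With the run of 9 rows only, chosen after seeing the data, it averaged 1.17 over the libraries. Rows with identical counts gave no value, as there were none. With the number after the gene name in the titles as a replicate block over the QTGAL and QTMAN libraries, added after seeing the data, the log2 fold change of uc002ohs.3 was 0.62 (edgeR adjusted p = 0.579) and 91 transcripts were called; differences between numbers 1 and 2 correlated at r = 0.187 across transcripts between the genotypes, and the labels do not say that the number pairs libraries.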
